A study of Homo sapiens with 9 samples.

Results

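The genes described here encode the machinery that makes the 3′ ends of RNA polymerase II transcripts: the cleavage and polyadenylation factors, factors that work with them, the histone mRNA binding protein SLBP and the first 14 subunits of the Integrator complex. They were chosen by name. All 38 are protein coding and all were among the 51105 genes listed in both deposited tables, and all 38 were among the 14581 genes that passed a minimum abundance of 50 in both. The samples were wildtype HEK293T cells, an established human embryonic kidney line, crosslinked with formaldehyde. Total RNA was sequenced from 3 inputs, which had no immunoprecipitation, from 3 RNA immunoprecipitations (RIP) with an antibody against the nuclear poly(A) binding protein PABPN and from 3 RIPs with an antibody against the cytoplasmic poly(A) binding protein PABPC. The 9 libraries came from 3 biological replicates whose lysates were divided between the antibodies. The cells were lysed whole, so a RIP shows with which protein an RNA was recovered and not directly where in the cell it was.

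Most messenger RNAs are made by cutting the nascent transcript downstream of a polyadenylation signal and adding a poly(A) tail to the new end. CPSF recognises the signal and cuts, CstF binds the downstream element, the cleavage factors CFIm and CFIIm assist, and a poly(A) polymerase builds the tail. PABPN coats the tail in the nucleus and PABPC takes over in the cytoplasm. Histone mRNAs that are made during DNA replication end in a stem-loop bound by SLBP and have no tail. Integrator is a separate complex with its own endonuclease, which cuts snRNA precursors and stops polymerase II early on many genes. The messages for all of these proteins are themselves polyadenylated. The data compare how much of each was recovered with the poly(A) binding proteins, relative to the other RNAs. They do not give the share of a message that each protein bound.

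The polyadenylation signals of 4 of the messages are shown to place the step at which these proteins act. They belong to the genes with the lowest and the highest values in the comparison of PABPN with PABPC among those with the hexamer AATAAA near their annotated end. Each is 30 bases of the sense strand of hg38, 5′ to 3′, with the hexamer in capitals. The hexamer ended 17 bases before the annotated end in NUDT21 (chr16:56429138-56429167, minus strand) and in INTS6 (chr13:51361582-51361611, minus strand), 18 bases before it in CLP1 (chr11:57661830-57661859, plus strand) and 22 bases before it in RBBP6 (chr16:24572824-24572853, plus strand). All 4 stretches lie in the 3′ UTR of the last exon.
NUDT21: tattgtcatttcAATAAAaaatatttgaaa
CLP1: aaaaatcattttAATAAAtatttttgccat
INTS6: cacattccatggAATAAAttccttattgaa
RBBP6: ctttttgattacAATAAAagttttcagtaa
Within the last 40 bases of the canonical GENCODE transcript, AATAAA was found in 24 of the 38 genes (63.2%), against 65.3% of 12450 protein coding genes. Only the sense strand was searched. The variant ATTAAA without AATAAA was found in 3 (7.89%), against 15.2%, and the remaining 11 held neither hexamer in this window.

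The deposited abundance of a gene is a mean of size-factor scaled reads over 6 libraries, the 3 inputs and the 3 RIPs of one antibody, with reads in introns and exons counted together. After both tables were put on the scale of the input reads that they share, the log2 ratio of the tables is that of input plus PABPN RIP over input plus PABPC RIP. It is called the pooled ratio below. A positive value means more scaled reads with PABPN than with PABPC, and the fold between the RIPs is at least as large as the ratio. It has no replicates and so no test, and a gene is described as past the fold when the pooled ratio is beyond 0.5. For 12 of the 38 genes the reads in each of the 9 libraries could also be worked out from the digits of the abundance values, and these genes were tested with limma over 9492 genes. The 12 are among the less abundant of the 38, and whether reads could be worked out depended on abundance and on the number of candidate solutions. Their whole reads per library ran from 241 for CLP1 to 5265 for SLBP. Within each group the libraries are called a, b and c in order of rising size factor, so a letter does not pair libraries of different groups. All values are relative to the other RNAs of the same library.

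Input c, PABPN RIP a and PABPC RIP c stood apart from the other libraries. Their deviations from their own group means correlated at 0.75 between Input c and PABPN RIP a, at 0.79 between Input c and PABPC RIP c and at 0.57 between PABPN RIP a and PABPC RIP c over 4778 genes. The SDs of their deviations were 0.185, 0.224 and 0.216 on the log2 scale, against 0.110 to 0.146 for the other 6. Which biological replicate they come from is not known from the tables. Counts of called genes are given with and without these 3 libraries, and with a term for them in the fit.

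The 38 genes lay on both sides of 0, and on the scale of the shared input reads the pooled ratios of the largest size were towards PABPC. The median pooled ratio was -0.04, with quartiles of -0.44 and 0.27, against 0.04 for all 14581 genes and -0.06 for the 12452 protein coding genes. Of the 38, 17 were above 0 and 21 below. INTS6 alone was past the fold towards PABPN, where 23.3% of all genes were, and 9 genes were past it towards PABPC, where 26.6% of all genes were. The balance depends on the scale: with sums over protein coding genes as the scale, the median of the 38 was 0.19, and 9 genes were past the fold towards PABPN and 5 towards PABPC, where 36.8% and 19.2% of all genes were. With the shared input reads as the scale, the 9 towards PABPC were NUDT21, CLP1, INTS5, SSU72, SLBP, PAPOLA, CSTF1, CPSF2 and INTS14. Together 10 of 38 were past the fold, against 49.9% of all genes and 46.9% of the protein coding genes. Among genes with reads per library and abundance above 400 in both tables, the standard error (SE) of the pooled ratio had a 90th percentile of 0.12. Of the 38 genes, 11 were above and 13 below 0 by more than 0.240, which is 2 of those errors, and 14 were closer to 0.

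**Figure D1:**
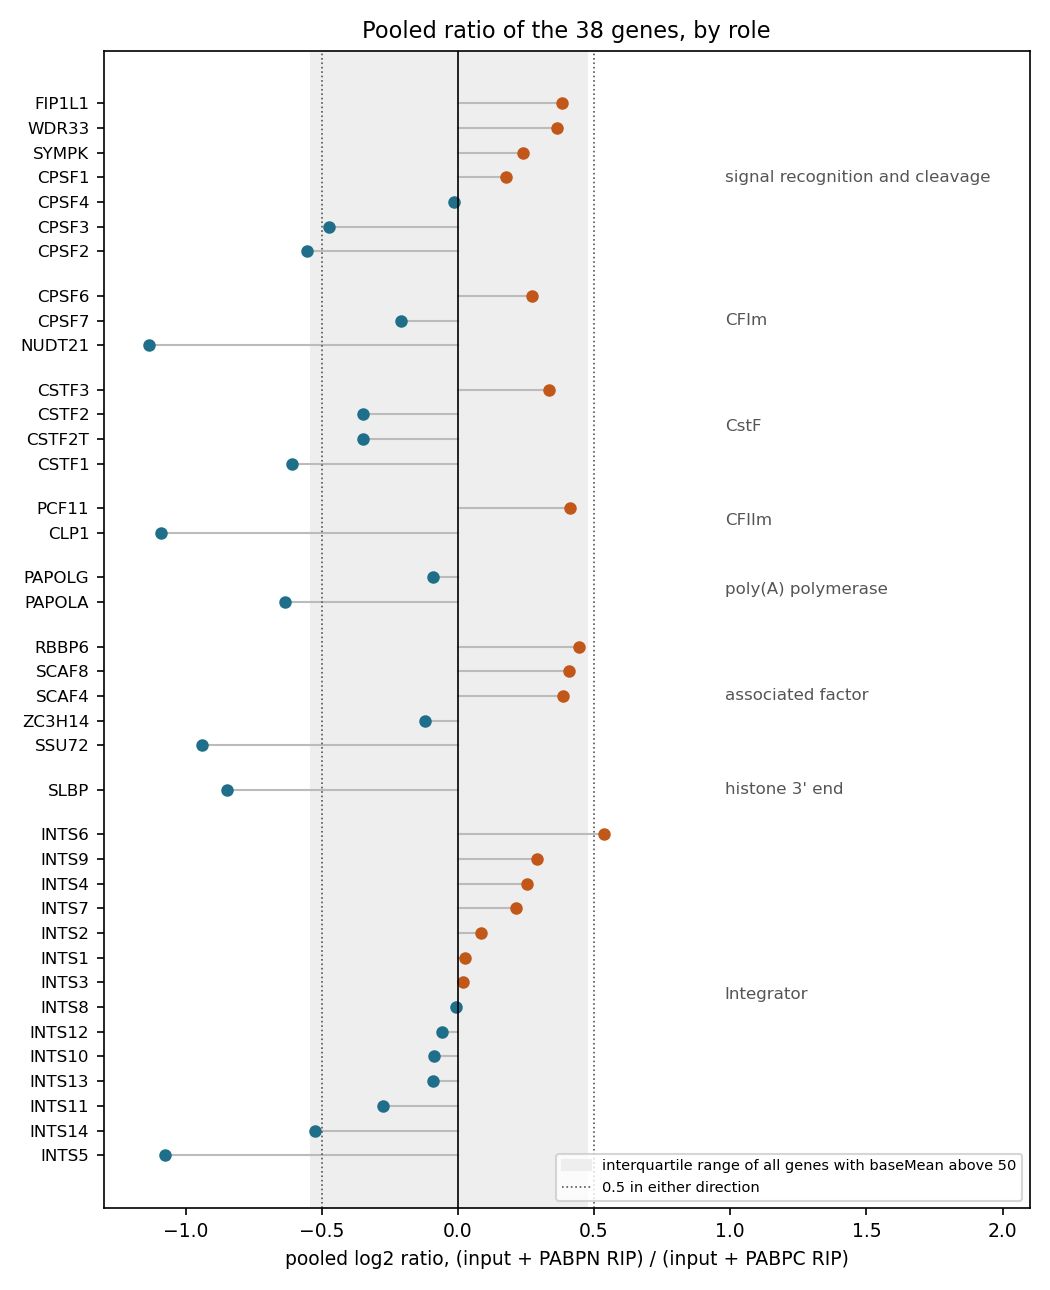
Pooled log2 ratio of input plus PABPN RIP over input plus PABPC RIP (x axis) for the 38 genes grouped by role. Orange points are above 0 and blue points below, grey shading spans the quartiles of all 14581 genes, and dotted lines mark 0.5 in either direction; INTS6 alone lies past the right line and 9 genes lie past the left one.

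The 7 genes of signal recognition and cleavage were divided within the complex. CPSF1, the large scaffold subunit, had a pooled ratio of 0.18, CPSF4, a zinc finger protein that contacts the signal, of -0.01, and the scaffold protein SYMPK of 0.24. FIP1L1, which links CPSF to the poly(A) polymerase, was at 0.38, with an abundance of 5534.5 for input plus PABPN and 4240.2 for input plus PABPC. WDR33, which reads the signal, was at 0.36, with 12321.5 and 9581.7. CPSF3, the endonuclease that makes the cut, was at -0.47, with 2669.2 and 3701.2. Its inactive partner CPSF2 was at -0.55, with 3710.1 and 5443.5, a fold of at least 1.47 towards PABPC. The messages of the paired nuclease subunits were therefore the lowest of the 7, and those of FIP1L1 and WDR33 the highest.

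In CFIm, which binds UGUA elements upstream of the cleavage site, the small subunit stood far from its partners. NUDT21, the RNA binding subunit (chr16:56429133-56452199, minus strand, 7 exons), had the lowest pooled ratio of all 38 genes, -1.13, from abundances of 4672.0 and 10244.4. The difference between the mean scaled reads of the RIPs was -11145 reads, and the fold was at least 2.19 towards PABPC. The larger subunits differed from it in the pooled ratio: CPSF6 was at 0.27 and CPSF7 at -0.21. Reads per library could not be worked out for these 3 genes.

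The cleavage stimulation factor CstF binds the GU-rich element downstream of the cleavage site, and 3 of its 4 genes had reads per library. CSTF1, the WD40 subunit, had 2202, 2053 and 1718 scaled reads in input a, b and c, 1324, 1356 and 1455 in the PABPN RIPs and 3289, 3409 and 2732 in the PABPC RIPs. The 3 groups did not overlap, with PABPN lowest and PABPC highest. CSTF1 fell in the PABPN RIP by 0.52 on the log2 scale (SE 0.112, adjusted p = 0.0028, limma with Benjamini-Hochberg adjustment) and rose in the PABPC RIP by 0.66 (adjusted p = 0.0002), so that PABPC held 2.27 times as many reads as PABPN. The PABPN call was lost without Input a, Input b, PABPN RIP a or PABPN RIP b. Over all limma fits without 1 library, calls kept or lost, its adjusted p was between 0.00093 and 0.016.

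CSTF2, the RNA binding subunit, gave 1983, 1847 and 1581 scaled reads in input, 993, 1068 and 1048 with PABPN and 1825, 1960 and 1636 with PABPC. The PABPN libraries lay below all others, while the PABPC and input libraries overlapped. The change against input was -0.79 with PABPN (SE 0.103, adjusted p = 0.00011) and 0.005 with PABPC (SE 0.103, adjusted p = 0.97). Its paralogue CSTF2T is encoded by a gene with a single exon and gave another pattern, with 2047, 1887 and 1702 reads in input, 1708, 2054 and 2213 with PABPN and 3177, 3226 and 2750 with PABPC. Here the PABPN libraries overlapped input and the PABPC libraries lay above both, with changes of 0.08 (SE 0.113, adjusted p = 0.59) and 0.70 (SE 0.113, adjusted p = 0.00013) against input. Both genes were lower with PABPN than with PABPC, by 0.80 and 0.62 on the log2 scale. With sums of reads as the scale, the rises of CSTF1 and CSTF2T with PABPC became 0.30 and 0.34 and the differences of CSTF2 and CSTF2T between the RIPs became -0.48 and -0.31, and these 4 calls were lost. The sources do not state how reads that match both paralogues were counted. CSTF3, the scaffold that holds the other subunits together, had only a pooled ratio, 0.34, which was opposite in sign to the other 3.

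CFIIm consists of PCF11, which also acts in termination, and the kinase CLP1. PCF11 had a pooled ratio of 0.41 and CLP1 of -1.09. CLP1 (chr11:57648188-57661865, plus strand) was the least abundant of the 38, with 636, 622 and 352 scaled reads in input, 234, 258 and 320 with PABPN and 1406, 1307 and 827 with PABPC. The lowest input library, Input c, was close to the PABPN libraries, and it and PABPC RIP c were the lowest of their groups. CLP1 rose with PABPC by 1.15 (SE 0.252, adjusted p = 0.0013) and fell with PABPN by 0.95 on the log2 scale (SE 0.252, adjusted p = 0.0094), with 4.28 times as many reads with PABPC as with PABPN (adjusted p = 1.1e-05). The change with PABPN against input had adjusted p between 0.00091 and 0.044 when single libraries were left out, and was called in only some of these fits.

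Both poly(A) polymerases had pooled ratios below 0. PAPOLA, the main nuclear enzyme, was past the fold towards PABPC, with a pooled ratio of -0.63 and abundances of 8044.7 and 12487.2. PAPOLG, a related nuclear enzyme, was at -0.09. Its reads were 2694, 2802 and 2389 in input, 2143, 2381 and 2132 with PABPN and 2711, 2668 and 2223 with PABPC. The RIP groups overlapped, and none of its changes was called: -0.24 with PABPN against input (SE 0.099, adjusted p = 0.062), -0.06 with PABPC against input (SE 0.099, adjusted p = 0.62) and -0.19 between the RIPs (SE 0.099, adjusted p = 0.098).

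Of the 5 associated factors, 3 had similar pooled ratios on the PABPN side. RBBP6, a ubiquitin ligase of the cleavage complex, was at 0.45, and SCAF8 and SCAF4, which bind the C-terminal domain of polymerase II, were at 0.41 and 0.39. SSU72, a phosphatase of that domain, was at -0.94, with abundances of 4215.4 and 8074.9 and a fold of at least 1.92 towards PABPC. ZC3H14, a nuclear protein that binds poly(A), was at -0.12, inside the error of 0.240 given above.

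SLBP had reads worked out for every library and all 3 groups were separate. It had 3170, 3228 and 2977 scaled reads in input, 1961, 2074 and 2164 with PABPN and 6578, 6570 and 5493 with PABPC. The lowest PABPC library was above the highest input library, which was above all PABPN libraries. SLBP rose with PABPC by 0.99 (SE 0.086, adjusted p = 7.9e-07) and fell with PABPN by 0.60 on the log2 scale (SE 0.086, adjusted p = 0.00021), and the RIPs differed by a factor of 3 (adjusted p = 1.6e-08). Its reads were the best of 129 candidate solutions and held 0.9654 of the weight, the least certain among the 12. The weighing favours solutions with close replicates and took in the usual changes against input, so its changes, SE and p-values depend in part on that choice.

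**Figure D2:**
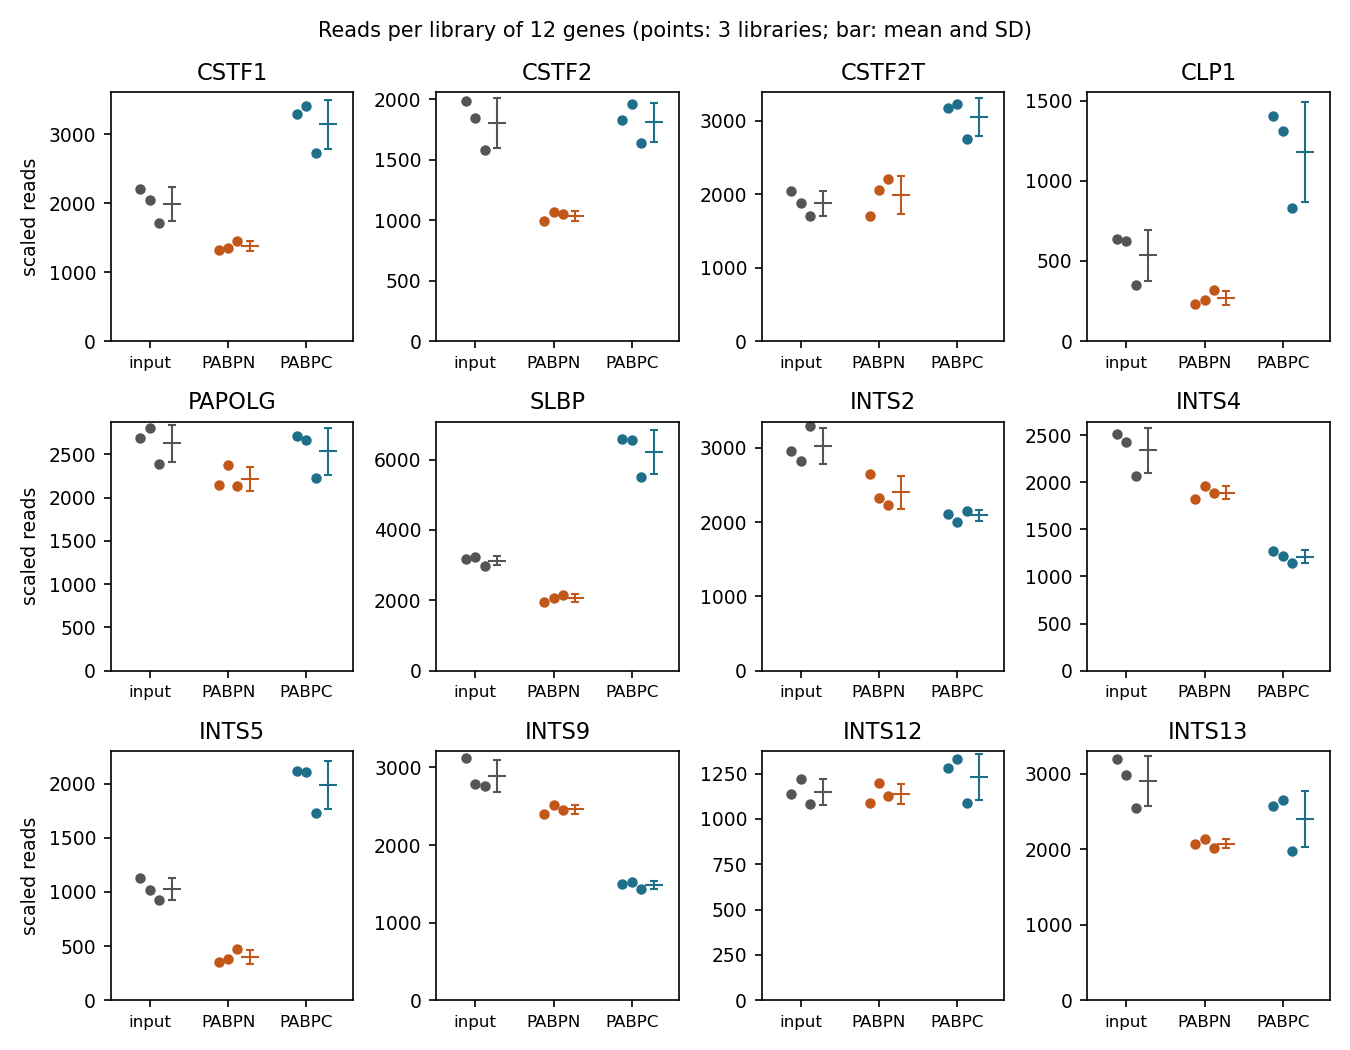
Scaled reads (linear axis) in each of the 3 input, 3 PABPN RIP and 3 PABPC RIP libraries for the 12 genes whose reads per library could be worked out. In INTS5, CLP1, SLBP and CSTF1 the PABPN libraries lie below input and the PABPC libraries above it, while in INTS4, INTS9 and INTS2 the PABPC libraries are the lowest.

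The 14 Integrator genes were evenly placed, 7 above and 7 below 0 in the pooled ratio, with a median of 0.01 and, apart from INTS5, INTS6 and INTS14, none past the fold. The median of the other 24 genes was -0.11, a difference that was not tested. The endonuclease module, which holds the catalytic subunit INTS11, its inactive partner INTS9 and the scaffold INTS4, was divided in sign: the pooled ratios were -0.28, 0.29 and 0.25. INTS4 and INTS9 both had reads per library. INTS4 had 2514, 2427 and 2070 in input, 1827, 1957 and 1887 with PABPN and 1271, 1219 and 1138 with PABPC. INTS9 had 3127, 2791 and 2756 in input, 2405, 2522 and 2448 with PABPN and 1501, 1523 and 1430 with PABPC. In both genes the order was input, PABPN, PABPC with no overlap, so their RNA was depleted from the PABPC RIP without being called higher with PABPN than in input.

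INTS4 fell in the PABPC RIP by 0.95 on the log2 scale (SE 0.091, adjusted p = 1.9e-06) and INTS9 by 0.96 (SE 0.076, adjusted p = 3.7e-07). Against input, the PABPN changes were -0.30 and -0.23 (adjusted p = 0.018 and 0.026), neither of which was called. PABPN exceeded PABPC by 0.65 for INTS4 and 0.73 for INTS9 on the log2 scale, and these were the 2 genes of 12 called higher with PABPN than with PABPC. The tables also list pseudogenes of INTS4, and the sources do not state how reads shared with them were counted.

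INTS5, a gene with 2 exons (chr11:62646848-62653302, minus strand), had the largest difference between the RIPs among the 12. Its scaled reads were 1131, 1020 and 930 in input, 351, 381 and 473 with PABPN and 2117, 2113 and 1731 with PABPC. No group overlapped another, and the solution for its reads was the only one. INTS5 fell with PABPN by 1.36 on the log2 scale (SE 0.133, adjusted p = 1.6e-05) and rose with PABPC by 0.95 (SE 0.133, adjusted p = 4.1e-05), and PABPC held 4.96 times as many reads as PABPN (adjusted p = 2.6e-08).

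INTS2, with 2951, 2822 and 3288 reads in input, 2647, 2322 and 2231 with PABPN and 2111, 2001 and 2154 with PABPC, fell with PABPC by 0.53 on the log2 scale (SE 0.089, adjusted p = 0.00018). This call was lost without Input c and without PABPC RIP b, and without the 3 libraries that stood apart the change was -0.49. INTS13 had 3191, 2985 and 2542 reads in input, 2068, 2132 and 2022 with PABPN and 2567, 2647 and 1972 with PABPC. Its change with PABPN, -0.48 (SE 0.12, adjusted p = 0.0066), fell just short of 0.5, and was -0.57 and called without the 3 libraries. INTS12, which carries a PHD finger, had groups that overlapped throughout, with 1138, 1220 and 1081 reads in input, 1090, 1196 and 1126 with PABPN and 1281, 1329 and 1089 with PABPC. Its 3 differences were between -0.113 and 0.101 with SE 0.098, and none was called.

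The other Integrator genes have only the pooled ratio. INTS6, a subunit of the arm that recruits the phosphatase PP2A, was the highest of all 38 at 0.54, with abundances of 3670.6 and 2529.9 and a fold of at least 1.45 towards PABPN. INTS8, of the same arm, was at -0.01. INTS14 was at -0.52, while INTS10 and INTS13, the subunits it joins in a module, were both at -0.09. The large subunit INTS1 was at 0.03, INTS3 at 0.02 and INTS7 at 0.21. Counting INTS2 (0.09) and INTS12 (-0.06), 7 of the 14 were between -0.09 and 0.09.

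Over the 12 genes with reads, the calls required an adjusted p of at most 0.01 and a change beyond 0.5. The highest pooled ratio among the 12 was that of INTS9, 0.29. INTS6, RBBP6 and PCF11, at 0.54, 0.45 and 0.41, were not tested, nor were NUDT21 and SSU72, at -1.13 and -0.94. The counts below therefore describe the 12 and not the 38. The shares beside them are of all genes fitted, and shares of the protein coding genes alone were not worked out. With PABPN against input, 5 genes were lower (CLP1, CSTF1, CSTF2, INTS5 and SLBP) and 0 were higher, where 10.0% and 18.2% of the 9492 genes were. At an unadjusted p under 0.05 in limma and with no limit on size, 0 of the 12 were higher with PABPN as well, where 30.8% of the 9492 genes were. With PABPC against input, 5 were higher (CLP1, CSTF1, CSTF2T, INTS5 and SLBP) and 3 lower (INTS2, INTS4 and INTS9), where 38.7% and 30.8% of all genes were. Between the RIPs, 6 were lower with PABPN (CLP1, CSTF1, CSTF2, CSTF2T, INTS5 and SLBP) and 2 higher, where 33.4% and 37.8% were. The medians of the 12 changes were -0.41, 0.05 and -0.41 in that order, against 0.02, 0.18 and 0.10 over all genes. The first and second comparisons share the input libraries and the 3 comparisons are not independent of each other. Without the 3 libraries that stood apart, 6, 7 and 8 of the 12 were called, against 5, 8 and 8 with all 9. With a term for these 3 libraries in the fit of all 9, the calls were unchanged in the 12 genes, and the SE of CLP1 was 0.112 in place of 0.252. The 3 libraries were picked from these same reads, so the smaller SE is not independent support for the calls.

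**Figure D3:**
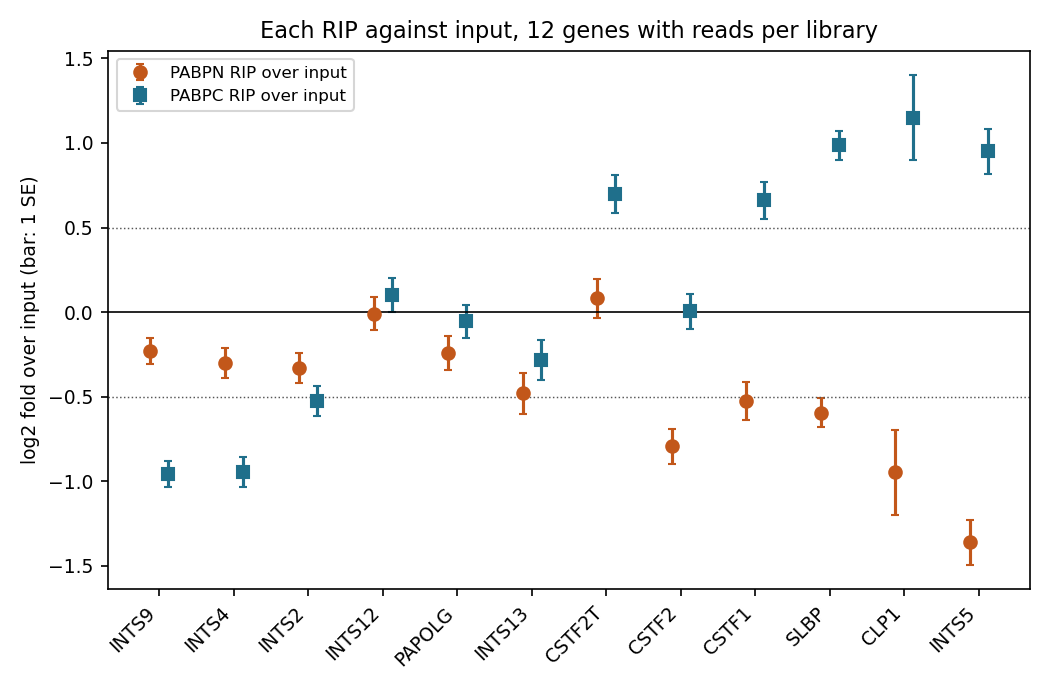
Log2 fold over input, with 1 SE, of the PABPN RIP (orange circles) and the PABPC RIP (blue squares) for the 12 genes with reads per library, ordered by the difference between the RIPs; dotted lines mark 0.5 in either direction. INTS9 and INTS4 at the left are lowest with PABPC, at -0.96 and -0.95, and INTS5 at the right is at -1.36 with PABPN and 0.95 with PABPC.

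Values of the 3 libraries of a group did not overlap those of another in 10 of the 12 genes for PABPN against input, in 8 for PABPC against input and in 9 between the RIPs. Over all 9492 genes the same was true of 59.2%, 83.4% and 84.0%. The genes whose RIP groups overlapped were PAPOLG, INTS12 and INTS13.

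The pooled ratio rose with the genomic span of the canonical transcript, and the 38 genes shared this with the other protein coding genes. Pearson's r with log10 span was 0.62 and Spearman's rho 0.59 over the 38 genes, against 0.62 and 0.61 over 12450 protein coding genes; these are correlations across genes, which share libraries and scaling and are not independent replicates. Introns were counted, and longer genes have more sequence that can hold unspliced reads. Whether this bears on the relation was not tested. With the percent of the span in introns, r was 0.45 and rho 0.30 over 37 of the 38 genes. Over 12219 protein coding genes they were 0.40 and 0.48. The median span of the 38 was 34.7 kb, against 31.3 kb, and ran from 4.1 kb for CLP1 to 122.3 kb for INTS9. The 19 genes with the shorter span had a median pooled ratio of -0.28, with 15 below 0, and the 19 with the longer span of 0.24, with 13 above 0. With the number of exons r was 0.61 over the 38 and 0.41 over the protein coding genes. With abundance in the PABPN table, which itself enters the ratio, r was 0.53 over the 38 and 0.13 over the protein coding genes. CSTF2T with 1 exon and INTS5 with 2 had pooled ratios of -0.35 and -1.08, and the 766 protein coding genes with 1 or 2 exons had a median of -0.60, against -0.03 for the 11684 with more.

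**Figure D4:**
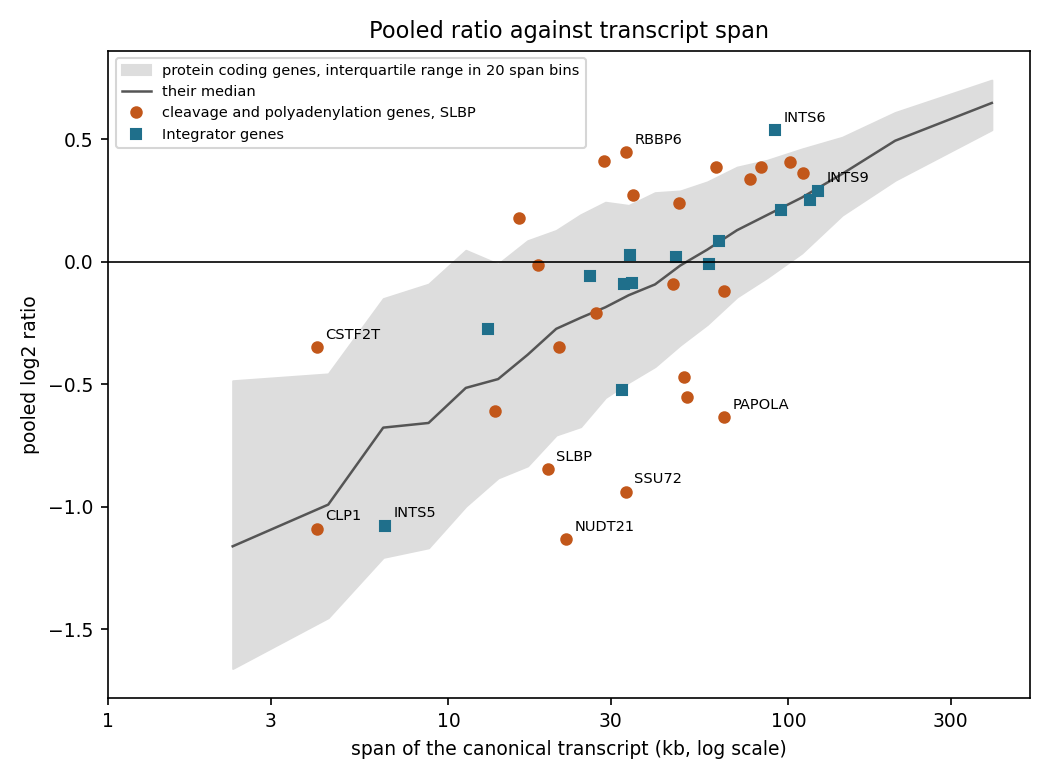
Pooled log2 ratio (y axis) against the span of the canonical transcript in kb (log axis) for Integrator genes (blue squares) and the other genes (orange circles), over the interquartile range (grey) and median (line) of protein coding genes in 20 span bins. Of the 14 Integrator genes 12 lie within the grey band, while NUDT21, SSU72 and PAPOLA lie below it and RBBP6, PCF11 and INTS6 above it.

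Set against protein coding genes of like span, 24 of the 38 lay between the quartiles, among them 12 of the 14 Integrator genes and 12 of the other 24. The 7 genes above the upper quartile were CPSF1, CPSF6, CSTF2T, PCF11, RBBP6, SCAF4 and INTS6. The 7 below the lower quartile were CPSF2, CPSF3, NUDT21, PAPOLA, SSU72, SLBP and INTS14. INTS5 and CLP1, which had pooled ratios nearly as low as NUDT21, were at the percentiles 31.7 and 44 of genes of their span, whereas PAPOLA was at 4.2, SSU72 at 5.6 and NUDT21 at 8.7. These places use the span of the canonical transcript, while reads were counted over the introns and exons of the gene. The annotated genes of CLP1 (chr11:57648188-57661865) and INTS12 (chr4:105682627-105895986) are much longer than their canonical transcripts (4.1 and 26.1 kb). Places by the span of the whole gene were not worked out and could differ for such genes. At the other end RBBP6 was at 86.7, INTS6 at 85.6 and PCF11 at 83.6.

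The 34 further genes of the pathway on the list had a median pooled ratio of -0.03, and 3 were past the fold towards PABPN and 10 towards PABPC, where 23.3% and 26.6% of all genes were. The 10 of 34 are near that background. The 6 partners of Integrator had a median of -0.72 and were divided. NABP2, a single-stranded DNA binding protein that joins INTS3, was at -1.94, and the PP2A subunits PPP2R1A and PPP2CA were at -1.25 and -0.89. INTS6 and INTS8, whose arm contacts that phosphatase, were at 0.54 and -0.01, as given above. INTS5, the lowest of the 14 Integrator genes, was at -1.08, on the same side as the PP2A subunits. INIP, which also joins INTS3, was at -0.54 and C7orf26, which is Integrator subunit INTS15, at -0.20. NABP1, the paralogue of NABP2, went the other way, at 0.33, and was 0.72 higher with PABPN than with PABPC on the log2 scale (SE 0.104, adjusted p = 5.3e-05). The 6 genes of histone pre-mRNA processing had a median of -0.07 and reached from LSM10 at -1.49 to CASP8AP2 at 0.55, with NPAT, a histone gene coactivator, at 0.41. LSM10 and LSM11 belong to the U7 particle that cuts histone pre-mRNA alongside SLBP. LSM10 had reads per library, and PABPN against PABPC gave -2.47 on the log2 scale (SE 0.137, adjusted p = 2e-08). LSM11 was at -0.27 in the pooled ratio and was higher than in input with both proteins in limma. The changes were 0.65 with PABPN (adjusted p = 0.00013) and 1.075 with PABPC (adjusted p = 4.4e-07). Between the RIPs it was -0.43 (SE 0.087, adjusted p = 0.00075), short of 0.5 and so not called. The 17 genes of termination and the polymerase II C-terminal domain had a median of -0.04, with 8 above 0 and 9 below. Of these, WDR82, a partner of the termination phosphatase, was at -1.09. RPAP2, a phosphatase of the polymerase II C-terminal domain, was the highest of the list at 0.64. The 5 terminal nucleotidyltransferases had a median of 0.14, with 4 above 0 and 1 below, and TENT2 was past the fold at 0.55. Of the 11 listed genes that were tested, 1 was higher (NABP1) and 5 were lower with PABPN than with PABPC, where 37.8% and 33.4% of the fitted genes were.

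The signs above depend in part on the scaling for genes close to 0. With the median of gene ratios as the scale, all pooled ratios moved by -0.035, and INTS1 and INTS3 came to lie below 0. With sums over protein coding genes as the scale all moved by 0.226. CPSF4, CPSF7, PAPOLG, ZC3H14, INTS8, INTS10, INTS12 and INTS13 then came to lie above 0, and 25 genes were above 0 and 13 below. In the tests, sums of reads as the scale turned the uncalled differences between the RIPs from -0.19 to 0.12 for PAPOLG, from -0.11 to 0.20 for INTS12 and from -0.20 to 0.12 for INTS13, and took INTS2 from 0.20 to 0.51, which was then called.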

How the data were processed

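The authors aligned the single-end reads to hg38 with STAR, counted introns and exons together per gene with featureCounts 2.0.2, and set each RIP against input with their own DESeq2 comparison, which gave 2 tables. In the tables as the authors deposited them the signal, baseMean, averages the reads of 6 libraries after division by DESeq2 size factors. The deposited log2 fold changes, their errors, statistics and p-values are the authors' own comparisons and were not used. The PABPC table was multiplied by 1.1697, the ratio of the worth of 1 input read in the tables (1.1631 to 1.1816 over the 3 inputs).

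The lowest baseMean values gave the worth of 1 read in each library, and every baseMean between 0 and 1 (9182 and 9307 genes) could be written as a sum of whole reads. Libraries found in both tables are input. For genes with baseMean above 50 in both tables and at most 4000, whole reads in 9 libraries were solved from the 15 digits of both baseMean values. The weights drew on how closely libraries of a group usually agree and on how the deviations of the 9 libraries go together. They also drew on the usual change of each RIP against input and its spread. All of these were learned from genes of the same data, so changes of genes with more than 1 candidate depend in part on them. The best candidate was kept if it held at least 0.95 of the weight. This gave 9492 of 10635 genes (89.3%), of which 7398 had 1 solution. The plan had asked for 1 solution, so this rule is wider. The weighing favours solutions with close replicates. Size factors ran from 0.8951 to 1.1308 in the PABPN table and from 0.7834 to 1.2196 in the PABPC table. Total depth was not worked out here.

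limma 3.58.1 in R 4.3.3 (lmFit, eBayes with trend) was run on log2(scaled reads + 0.5) over the 9 libraries in 1 fit, with Benjamini-Hochberg adjustment over all 9492 genes. Calls needed an adjusted p of at most 0.01 and a change beyond 0.5, cut-offs taken from the study. Fold changes are on this log2 scale. Tables were handled in Python 3.11.15 with numpy 2.4.6 and pandas 2.3.3. The fit was tried on simulated counts. The solving of reads was tried on rescaled reads of genes that already had a clear solution and on slightly altered baseMean values. No error rate is given for genes with many candidates. Annotation was GENCODE 44. Every one of the 38 genes is named, by role, and other genes only from a list. The genes and lists were chosen with earlier results of these data known.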

Additional observations from a re-analysis of the deposited data

How the results depend on the processing

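No called direction reversed under the alternatives that were run. With the fold set at 0.25 or 1, 24 or 3 genes were past it in the pooled ratio, against 10, and scaling on sums over protein coding genes moved the median pooled ratio to 0.19. Of the 12 genes tested, 5 were called for PABPN against input, 1 with a change beyond 1, 2 among the 4 genes with 1 solution, and 3 to 6 when single libraries were left out. CSTF1 and CLP1 were lost without Input a, Input b, PABPN RIP a or PABPN RIP b, CLP1 also without PABPN RIP c, PABPC RIP a or PABPC RIP b, and INTS13 was gained without Input c. For PABPC against input 8 were called, 1 beyond 1, 3 among the genes with 1 solution and 7 to 8 when single libraries were left out. Between the RIPs 8 were called, 4 beyond 1, 3 among the genes with 1 solution and 8 throughout when single libraries were left out. With sums as the scale, 6, 7 and 7 were called: INTS13 was gained against input in both RIPs, CSTF1 and CSTF2T were lost for PABPC against input, and between the RIPs CSTF2 and CSTF2T were lost and INTS2 gained. That scale moved the median over all genes from 0.18 to -0.18 for PABPC against input, from 0.10 to 0.41 between the RIPs and from 0.02 to -0.02 for PABPN against input, and the share of higher among called genes from 55.7% to 41.5%, from 53.0% to 63.5% and from 64.5% to 57.2%. The cause was not tested for any change of a call. Leaving out Input c, PABPN RIP a and PABPC RIP c, fitting a term for them and keeping only genes with 1 solution were chosen after seeing the data. No paired analysis was possible because the reads worked out per library carry no replicate number, and only the set of 3 libraries that deviate together could be seen in the data. A term for that set changed no call among the 12 genes, CSTF1 and CLP1 included (adjusted p = 2.7e-06 and 2.3e-06 for PABPN against input in limma). The set was picked from these same reads. For genes with more than 1 candidate, such as CSTF1 with 7, the weighing had also taken in how libraries deviate together. The fit with this term is therefore no independent support for the 2 calls, which several fits without 1 library lost. The 26 genes without reads per library have no replicate error.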
